A study of Mus musculus with 11 samples.

Results

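The genes described here encode the subunits of the 4 respiratory chain complexes and of the ATP synthase, called complexes I to V, in bulk tissue of orthotopic tumors. Members were all genes whose symbol in the array annotation starts with Nduf followed by a, b, c, s or v and a digit, with Uqcr, with Cox and a digit from 4 to 8, or with Atp5, together with Sdha, Sdhb, Sdhc and Sdhd. This gave 84 genes of the 19505 with a symbol on the array, and each was read by 1 probe set. By complex, 35 members belonged to complex I, 4 to complex II, 8 to complex III, 20 to complex IV and 17 to complex V. Ndufa4, its paralog Ndufa4l2 and the supercomplex factor Cox7a2l were placed with complex IV.

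The study asked how mammary tumors change when Pcx is knocked down; Pcx encodes pyruvate carboxylase, which converts pyruvate into oxaloacetate inside mitochondria. E0771 cells, an established line from a mammary carcinoma of a C57BL/6 mouse, were transduced with lentiviral pLKO.1 vectors, selected with puromycin and placed in the mammary fat pad of young adult female C57BL6J mice that received no treatment. The vector carried a hairpin against Pcx in the shPC25 (3 tumors) and shPC28 (4 tumors) groups, and a scrambled hairpin in the scram group (4 tumors). Each tumor was excised from a mouse whose title carries the code LFD. The paper states that the C57BL6/J mice of its E0771 studies were fed the diet D12450J. It also states that primary tumors were divided into a frozen and a fixed part. RNA of the tumor tissue was read on a Clariom S array. No source used here says that a transduction was repeated, so the tumors of a group may derive from a single transduced cell pool and the p-values measure the spread between these tumors.

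The respiratory chain passes electrons from NADH through complex I, or from succinate through complex II, to ubiquinone, then through complex III and cytochrome c to complex IV, where oxygen is reduced. Complexes I, III and IV pump protons across the inner mitochondrial membrane, and complex V uses the gradient to make ATP. Subunits of all complexes except complex II are encoded partly in the mitochondrial genome, and the members here are the nuclear-encoded ones. Several complex IV subunits exist as a common isoform and as an isoform largely limited to muscle, lung or testis.

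All values are log2 signals as deposited, and a difference of 1 is 2-fold in signal. Array medians differed somewhat by group: 5.89 to 5.93 in shPC25, 5.92 to 6.07 in shPC28 and 5.99 to 6.08 in scram tumors. Of the hairpin arrays, shPC28 replicate 4 (6.07) alone lay above the lowest scram array. Correlations between arrays lay between 0.987 and 0.994, and no 2 arrays were identical. The signal of one probe set cannot be set against that of another, so levels were compared only between tumors. As a guide to background, the 95th percentile of the mean signal of 1091 olfactory receptor probe sets was 4.30; 80 members lay above it and 4 (Cox4i2, Cox6b2, Cox8b and Cox8c) did not. Mammary epithelial markers were mixed: Krt8 averaged 14.13, 14.17 and 14.10 in shPC25, shPC28 and scram tumors, Krt14 averaged 6.36, 6.71 and 8.63 and Cdh1 5.31, 5.99 and 6.32 in the same groups, and Esr1 and Krt5, 2 of 7 markers, were not above the background guide. Against scram, 6 of the 7 were lower in shPC25 and 3 of 7 in shPC28, 0 of them at an unadjusted p below 0.05. Pcx itself was not above the guide: its log2 signals were 3.19, 3.42 and 3.12 in shPC25 tumors and 3.76, 2.90, 2.32 and 3.44 in shPC28 tumors, against 3.41, 3.89, 4.48 and 4.13 in scram tumors, so 10 of the 11 tumors lay below it and the groups overlapped. The group means were 3.24 ± 0.16, 3.11 ± 0.63 and 3.98 ± 0.45 (SD, n = 3, 4 and 4), with a limma adjusted p of 0.388 for both hairpin groups against scram. An exact permutation test of the difference of means gave p = 0.0857 for shPC25, 0.0857 for shPC28 and 0.0212 for both against scram. At background, this probe set cannot check the hairpin labels. The paper reported knockdown with both hairpins in E0771 cells, by immunoblot and qPCR.

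Across the 84 members, the differences between tumors with Pcx hairpins and scram tumors were centred close to 0. In the comparison of both hairpin groups with scram, the median log2 difference of the members was 0.03, against 0.02 over all 22206 probe sets. Complex I members were higher in 26 cases and lower in 9 (median 0.06), complex II members were lower in 4 of 4 (median -0.15), complex III members were higher in 5 and lower in 3 (median 0.04), complex IV members were higher in 13 and lower in 7 (median 0.03), and complex V members were higher in 10 and lower in 7 (median 0.02). These signs include differences far smaller than their errors.

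No member passed limma's threshold of an adjusted p of 0.05 in any comparison. For both hairpin groups against scram, 0 of 84 members passed, against 0.0135% of all probe sets (3 probe sets). At an unadjusted p below 0.05, 5 members were higher and 3 lower, a share of 9.52% against 9.11% of all probe sets (4.34% higher and 4.76% lower), a share close to that of the array. That closeness depends on the setting. With a plain test of pooled variance the share was 16.7% of the members (10 higher, 4 lower) against 8.82% of all probe sets. That test pooled the hairpin tumors, whereas the main fit weighted the hairpin groups equally. With median centring of the arrays the share was 17.9% (13 higher, 2 lower) against 11.4%. For shPC25 against scram, 0 members passed (0% of all probe sets), with 4 higher and 3 lower at an unadjusted p below 0.05, or 8.33% against 8.45% (4.29% higher and 4.16% lower). For shPC28 against scram, 0 members passed (0% of all probe sets), with 4 higher and 2 lower, or 7.14% against 7.41% (3.69% higher and 3.72% lower). The plain test with Benjamini-Hochberg adjustment also passed 0 members in each comparison. The members had a median within-group SD of 0.16, against 0.29 for probe sets above the background guide. These sets were not matched for signal, and 54 members averaged 12 or more. The 95% interval of the difference lay within ±0.5 for 64 of 84 members and within ±1 for 78. In this bulk tumor tissue, fewer cells of a type and less RNA per cell cannot be told apart.

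**Figure D1:**
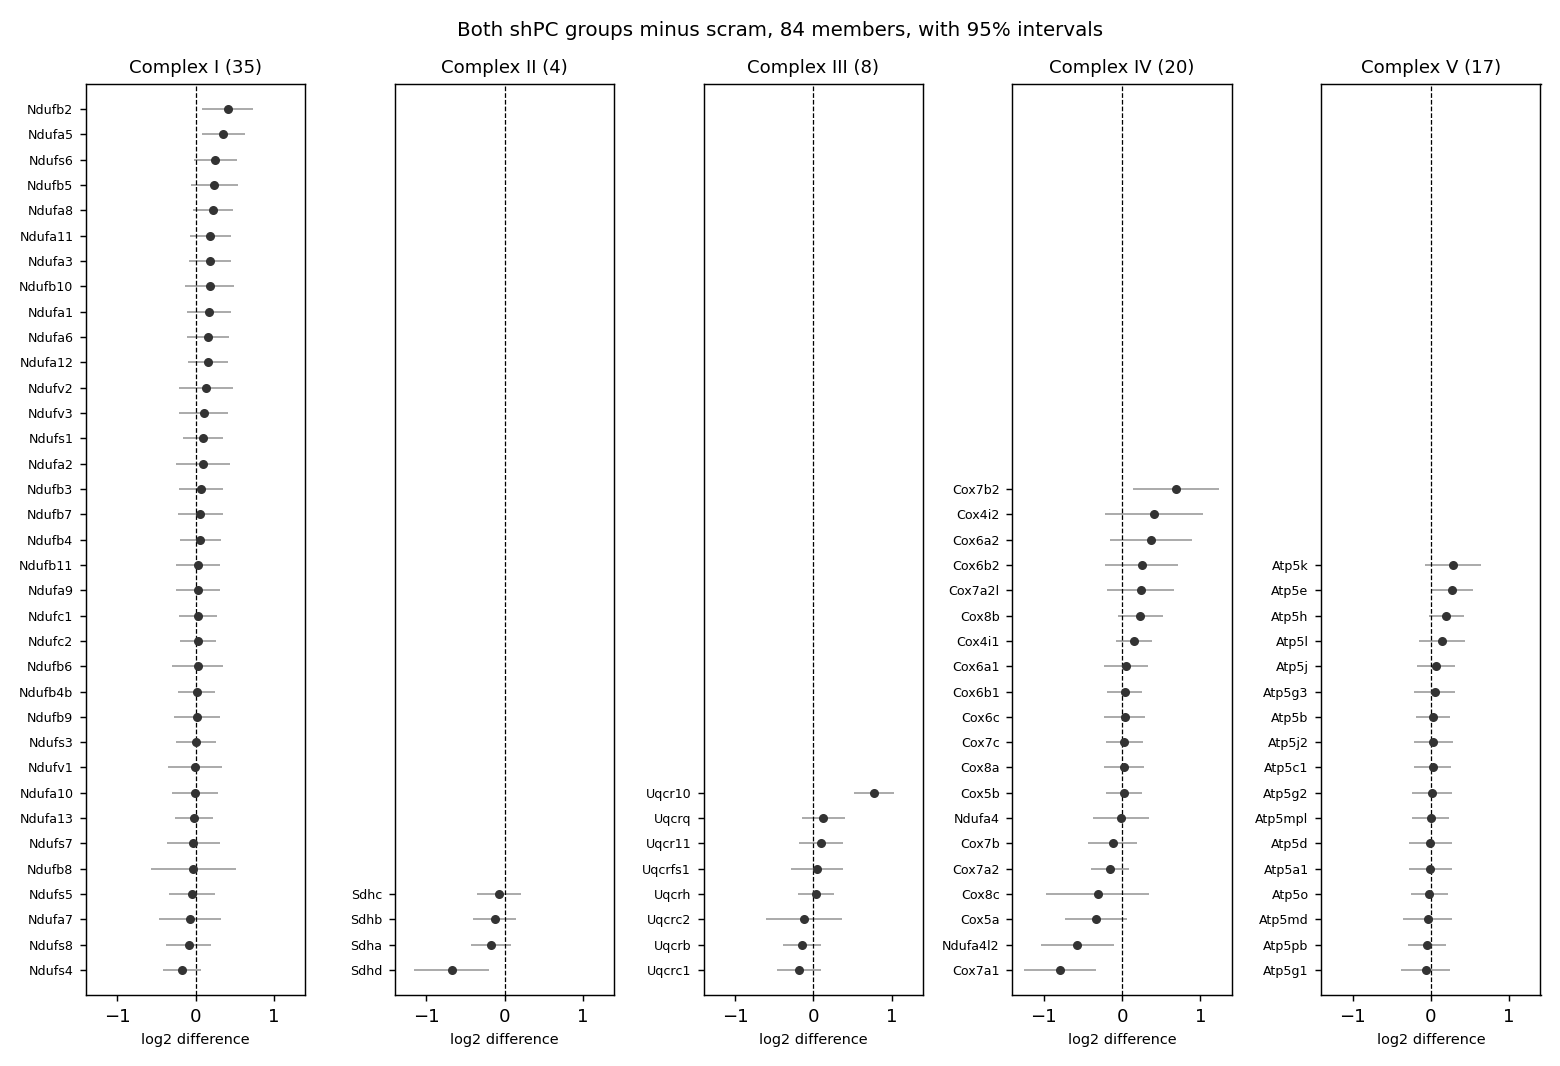
Log2 difference (both hairpin groups minus scram, 7 tumors against 4) on the horizontal axis for each of the 84 members, by complex, with bars for the 95% interval of the limma fit. Most points sit close to 0; Uqcr10 of complex III at 0.77, Cox7a1 of complex IV at -0.79, Cox7b2 of complex IV at 0.69 and Sdhd of complex II at -0.68 lie farthest from it.

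The upstream sequence of 4 members that the results turn on is shown because they belong to 3 complexes and lie farthest from 0 in opposite directions. Each line gives the 250 bases before the annotated start, from RefSeq on GRCm38.p6, read 5′ to 3′ on the strand of the gene. Capitals mark matches to the NRF1 motif (NRF1 is a factor known to act on many respiratory chain genes), which is GC followed by GCANGCGC, or to CCGGAAG, the core bound by ETS factors such as GABP, on either strand. The coordinates are chr11:4704345-4704594 (minus strand) for Uqcr10, chr9:50603850-50604099 (minus strand) for Sdhd, chr7:30183921-30184170 (plus strand) for Cox7a1 and chr5:71548206-71548455 (minus strand) for Cox7b2.
Uqcr10: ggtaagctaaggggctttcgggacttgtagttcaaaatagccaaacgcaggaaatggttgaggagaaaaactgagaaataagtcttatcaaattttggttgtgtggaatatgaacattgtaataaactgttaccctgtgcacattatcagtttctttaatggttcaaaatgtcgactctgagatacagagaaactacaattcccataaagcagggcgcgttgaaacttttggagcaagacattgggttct
Sdhd: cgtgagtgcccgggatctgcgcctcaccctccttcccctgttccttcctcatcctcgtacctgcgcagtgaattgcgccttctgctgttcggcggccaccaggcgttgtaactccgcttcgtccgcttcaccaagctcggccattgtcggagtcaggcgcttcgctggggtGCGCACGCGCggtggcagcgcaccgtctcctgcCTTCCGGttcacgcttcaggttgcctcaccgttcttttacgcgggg
Cox7a1: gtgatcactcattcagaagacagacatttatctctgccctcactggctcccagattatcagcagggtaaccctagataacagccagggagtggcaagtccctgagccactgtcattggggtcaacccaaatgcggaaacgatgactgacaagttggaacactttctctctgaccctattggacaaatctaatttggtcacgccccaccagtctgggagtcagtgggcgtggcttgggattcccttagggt
Cox7b2: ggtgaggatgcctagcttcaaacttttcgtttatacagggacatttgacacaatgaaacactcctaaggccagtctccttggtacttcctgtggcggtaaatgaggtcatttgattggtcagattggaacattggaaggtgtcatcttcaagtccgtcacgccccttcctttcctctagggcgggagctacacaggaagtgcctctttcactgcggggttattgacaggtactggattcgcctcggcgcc

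Only the Sdhd stretch of these 4 held a match, with both motifs: the NRF1 motif began 79 bases and the ETS core 46 bases before the start. The shorter letters GCANGCGC alone, which every NRF1 match contains and which were searched after the Uqcr10 promoter had been read, matched 3 bases after the Uqcr10 start, outside the stretch shown. Of the 84 members, 69 had an entry in the promoter table and 15 did not. The NRF1 motif was found in 13 of the 69 (18.8%), against 5.84% of 17491 protein-coding genes, and the shorter letters in 30.4% against 11.7%. The ETS core was found in 17.4% against 10.2%. By complex, the NRF1 motif matched 6 of 32 promoters in complex I, 2 of 3 in complex II, 0 of 5 in complex III, 1 of 14 in complex IV and 4 of 15 in complex V. A match is a description of letters and was not tested against the tumors' signals.

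Complex I oxidises NADH and is the largest of the complexes. Its 6 core members, which hold the flavin and most iron-sulfur centres, had differences from -0.09 to 0.13 in both hairpin groups against scram, none at an unadjusted p below 0.05. Ndufs1, the largest iron-sulfur subunit, averaged 13.33 ± 0.17 in shPC25, 13.27 ± 0.12 in shPC28 and 13.21 ± 0.09 in scram tumors (SD, n = 3, 4 and 4), a log2 difference of 0.09 (95% interval -0.16 to 0.35). Ndufv1, which binds NADH and the flavin, averaged 14.24 ± 0.34, 13.97 ± 0.15 and 14.11 ± 0.23 in the same order, a log2 difference of -0.0046 (95% interval -0.35 to 0.34). Neither core subunit separated the groups.

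Among the 29 accessory members of complex I, which surround the core and serve its assembly and stability, 23 were higher and 6 lower, with a median of 0.06. Ndufa5, a small subunit of the peripheral arm, had log2 signals of 12.51, 12.62 and 12.47 in shPC25 tumors and of 12.69, 12.27, 12.31 and 12.19 in shPC28 tumors, against 12.03, 12.15, 11.98 and 12.23 in scram tumors. All 3 shPC25 tumors lay above every scram tumor, while shPC28 replicate 4 lay below scram replicate 4. The log2 difference was 0.35 (SE 0.13, limma adjusted p = 0.420). Ndufb2, of the membrane arm, had 10.41, 10.15 and 10.34 in shPC25 tumors and 10.24, 10.40, 10.57 and 10.41 in shPC28 tumors, against 9.64, 10.10, 9.74 and 10.30 in scram tumors. The groups overlapped through scram replicate 4, the scram values spread more widely than those of either hairpin group, and the log2 difference was 0.41 (SE 0.15, limma adjusted p = 0.436). Ndufs4 and Ndufs8, the members of complex I with the smallest p among those lower, differed by -0.17 (SE 0.11) and -0.09 (SE 0.13).

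Complex II is succinate dehydrogenase, which serves both the chain and the TCA cycle. Its membrane anchor Sdhd had log2 signals of 13.59, 12.87 and 13.94 in shPC25 tumors and of 13.54, 13.85, 13.73 and 13.50 in shPC28 tumors, against 14.10, 14.07, 14.80 and 13.98 in scram tumors. All 7 hairpin tumors lay below every scram tumor, but by 0.04 at the nearest pair, shPC25 replicate 3 and scram replicate 4. The log2 difference was -0.68 (SE 0.22, limma adjusted p = 0.359), and it was -0.49 without scram replicate 3, the highest tumor, and -0.53 without shPC25 replicate 2, the lowest.

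The other 3 subunits of complex II differed less. Sdha, the flavoprotein that oxidises succinate, averaged 10.70 ± 0.18 in shPC25, 10.84 ± 0.11 in shPC28 and 10.94 ± 0.12 in scram tumors, a log2 difference of -0.17 (SE 0.12, 95% interval -0.43 to 0.09). Sdhb, the iron-sulfur subunit, differed by -0.13 (SE 0.13), and Sdhc, the partner of Sdhd in the membrane, by -0.07 (SE 0.13). Averaged over the 4 subunits, complex II gave 11.92 ± 0.22 in shPC25, 12.03 ± 0.08 in shPC28 and 12.23 ± 0.13 in scram tumors. The shPC25 tumors ranged from 11.67 to 12.09, below the scram tumors at 12.12 to 12.39. The shPC28 tumors ranged from 11.97 to 12.15 and overlapped the scram tumors through shPC28 replicate 2.

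Complex III hands electrons from ubiquinol to cytochrome c, and it held the member with the smallest p. Uqcr10, one of its smallest subunits, had log2 signals of 12.73, 12.64 and 12.61 in shPC25 tumors and of 12.71, 12.85, 12.45 and 12.73 in shPC28 tumors, against 11.95, 12.02, 11.76 and 11.87 in scram tumors. All 7 hairpin tumors lay above every scram tumor, and the lowest hairpin tumor exceeded the highest scram tumor by 0.43. The log2 difference was 0.77 (SE 0.12, 95% interval 0.52 to 1.03, 1.71-fold) for both hairpin groups, rank 7 of 22206 by p, with a limma adjusted p of 0.0692. For shPC25 alone it was 0.76 (SE 0.14, limma adjusted p = 0.172) and for shPC28 alone 0.79 (SE 0.13, limma adjusted p = 0.144), both against the same scram tumors. Uqcr10 did not pass the threshold in this fit. It did with a trended and robust prior on the variance, at a limma adjusted p of 0.0205 for both hairpin groups and 0.0484 for shPC28. That prior passed more of all 22206 probe sets: 22 for both hairpin groups, against 3 in this fit, and 9 for shPC28, against 0.

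The remaining 7 members of complex III differed by -0.18 to 0.13. Uqcrc1, a core protein, averaged 12.92 ± 0.16 in shPC25, 13.02 ± 0.16 in shPC28 and 13.15 ± 0.18 in scram tumors, a log2 difference of -0.18 (SE 0.13). Uqcrfs1, the Rieske iron-sulfur protein, differed by 0.04 (95% interval -0.29 to 0.38). Uqcrb, a small subunit, differed by -0.14 (SE 0.11), and Uqcrq, another small subunit, by 0.13 (SE 0.12). Uqcrc2, the second core protein, had an SD of 0.61 in shPC25 tumors, at 9.75, 8.67 and 9.71, against 9.60, 9.75, 9.87 and 9.31 in scram tumors.

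**Figure D2:**
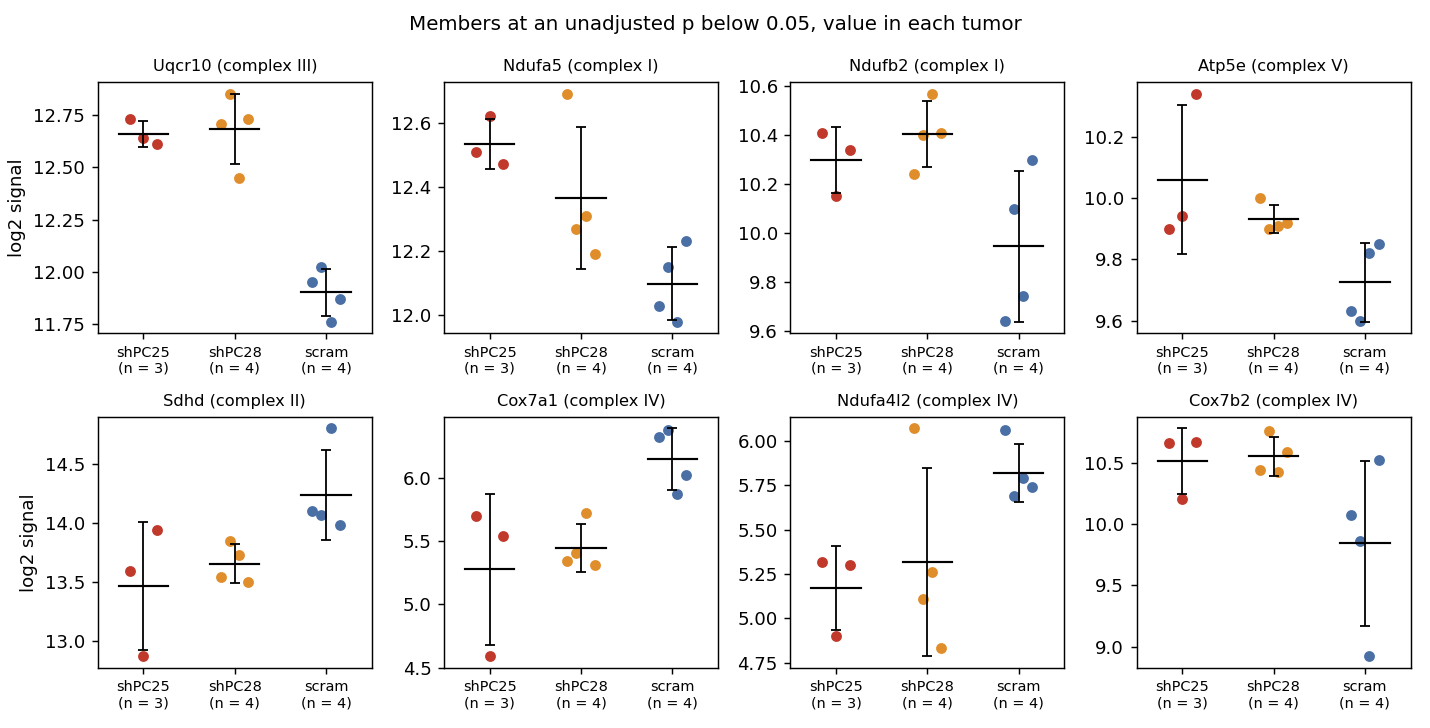
Log2 signal (vertical axis, scaled separately for each gene) in every tumor for the 8 members at an unadjusted p below 0.05 in both hairpin groups against scram; points are tumors, lines are group means and bars are SD. Uqcr10 shows a gap between the hairpin tumors, at 12.45 or more, and the scram tumors, at 12.02 or less, whereas Ndufa4l2, Ndufb2, Ndufa5 and Cox7b2 overlap.

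Complex IV, cytochrome c oxidase, reduces oxygen. Its 12 members of common expression had a median difference of 0.03, none at an unadjusted p below 0.05. Cox4i1, the common form of a regulatory subunit, averaged 13.65 ± 0.07 in shPC25, 13.53 ± 0.04 in shPC28 and 13.44 ± 0.11 in scram tumors, a log2 difference of 0.15 (SE 0.10). Cox5a, the binding partner of subunit 4, differed by -0.33 (SE 0.18, limma adjusted p = 0.633). For the common forms Cox6a1, Cox6b1 and Cox8a the differences were 0.05, 0.03 and 0.02, and for Cox7a2, Cox7b and Ndufa4 they were -0.15, -0.12 and -0.01, each with an SE between 0.10 and 0.17.

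The 8 isoforms of restricted expression spread more widely, from -0.79 to 0.69. Cox7a1, the heart and skeletal muscle form of subunit 7a, had log2 signals of 5.70, 4.59 and 5.54 in shPC25 tumors and of 5.34, 5.41, 5.72 and 5.31 in shPC28 tumors, against 6.32, 6.38, 5.87 and 6.02 in scram tumors. All 7 hairpin tumors lay below every scram tumor, with shPC25 replicate 2 the lowest. The log2 difference was -0.79 (SE 0.21, limma adjusted p = 0.255), and it was -0.62 without shPC25 replicate 2. Its common counterpart Cox7a2 differed by -0.15 (SE 0.11).

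The other muscle forms, Cox6a2 and Cox8b, had differences above 0. Cox6a2 had 4.25, 4.69 and 5.29 in shPC25 tumors and 4.79, 5.27, 5.58 and 5.55 in shPC28 tumors, against 4.73, 4.48, 5.15 and 4.25 in scram tumors, and differed by 0.37 (SE 0.24). Cox8b was not above the background guide in any tumor, at 2.69 to 3.26 in hairpin tumors and 2.44 to 2.96 in scram tumors; its log2 difference for shPC25 was 0.38 (SE 0.16, limma adjusted p = 0.558). Of 13 skeletal muscle markers, 11 were lower (median -0.37) and 8 were not above the guide, and their mean ranged from 4.19 to 4.32 in shPC25, 4.03 to 4.44 in shPC28 and 4.12 to 5.03 in scram tumors. Of 9 fibroblast markers all were lower (median -2.20), with a mean of 7.82 to 9.29 in shPC25, 7.50 to 9.55 in shPC28 and 9.33 to 11.58 in scram tumors; among the defining ones, Col1a1 differed by -1.93 (SE 0.62) and Dcn by -3.21 (SE 0.76), and Fap was not above the guide. The part of either cell type in the Cox7a1 result was not tested.

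Ndufa4l2, the paralog of Ndufa4 that is known as a target of the hypoxia factor HIF-1, had 5.32, 4.90 and 5.30 in shPC25 tumors and 6.07, 5.11, 5.26 and 4.83 in shPC28 tumors, against 6.06, 5.69, 5.79 and 5.74 in scram tumors. One hairpin tumor, shPC28 replicate 1, lay above all scram tumors, and the other 6 lay below them. The log2 difference was -0.57 (SE 0.21, limma adjusted p = 0.442), and -0.70 without shPC28 replicate 1. Of 10 hypoxia markers, 7 were lower (median -0.18), with a mean of 12.12 to 12.80 in shPC25, 12.17 to 13.05 in shPC28 and 12.23 to 13.23 in scram tumors; pericyte and smooth muscle markers were lower in 7 of 9 (median -0.07), with a mean of 6.17 to 6.53, 6.27 to 6.80 and 6.35 to 6.87 in the same groups, and 3 of the 9 were not above the guide. Their part in the result was not tested. Cox4i2, the lung form of subunit 4, was above the guide only in shPC28 replicate 1, at 4.49, and ranged from 2.67 to 3.72 in the other 10 tumors.

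Cox7b2, described as a testis form of subunit 7b, gave a clear signal in every tumor. It had 10.66, 10.20 and 10.67 in shPC25 tumors and 10.44, 10.76, 10.42 and 10.59 in shPC28 tumors, against 10.07, 9.86, 8.92 and 10.52 in scram tumors. Scram replicate 3 was the lowest and scram replicate 4 overlapped the hairpin tumors. The log2 difference was 0.69 (SE 0.25, limma adjusted p = 0.439), and 0.38 without scram replicate 3. The testis forms Cox6b2 and Cox8c averaged below the guide in each group, at 3.38, 3.16 and 3.02 for Cox6b2 and 3.44, 3.50 and 3.78 for Cox8c in shPC25, shPC28 and scram tumors, and 6 of 6 other testis markers were not above it.

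**Figure D3:**
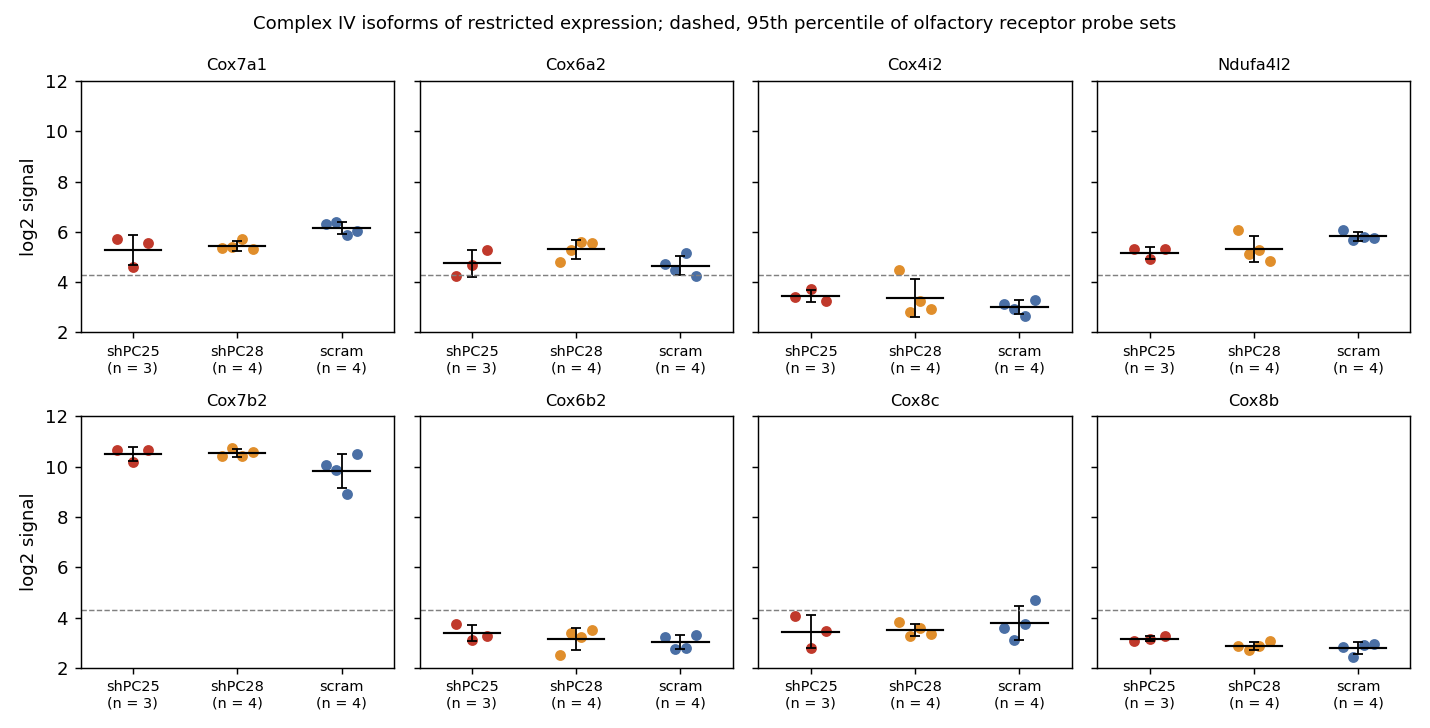
Log2 signal (vertical axis, shared) in every tumor for the 8 complex IV isoforms of restricted expression; points are tumors, lines group means, bars SD, and the dashed line the 95th percentile of olfactory receptor probe sets (4.30). Cox7b2 lies between 8.92 and 10.76, while Cox6b2 and Cox8b lie below the dashed line in all 11 tumors.

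Complex V makes ATP in its F1 head. The catalytic subunit Atp5b averaged 16.20 ± 0.09 in shPC25, 16.28 ± 0.01 in shPC28 and 16.21 ± 0.06 in scram tumors, a log2 difference of 0.03 (95% interval -0.19 to 0.25). Atp5a1, the alpha subunit, differed by -0.01 (95% interval -0.28 to 0.26). The epsilon subunit Atp5e had 9.90, 9.94 and 10.34 in shPC25 tumors and 10, 9.90, 9.91 and 9.92 in shPC28 tumors, against 9.63, 9.60, 9.82 and 9.85 in scram tumors. All 7 hairpin tumors lay above every scram tumor, by 0.05 at the nearest pair, and the log2 difference was 0.27 (SE 0.12, limma adjusted p = 0.543).

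Atp5h, the d subunit of the stator stalk, also had no overlap, at 16.25, 16.28 and 16.11 in shPC25 tumors and 16.25, 16.11, 16.16 and 16.25 in shPC28 tumors, against 15.93, 15.99, 16.05 and 16.06 in scram tumors. Its log2 difference was 0.20 (SE 0.10, limma adjusted p = 0.614). Uqcr10, Atp5e and Atp5h were thus the 3 members with all hairpin tumors above every scram tumor (0.842% of all probe sets), and Sdhd and Cox7a1 the 2 with all below (0.703%). The 3 genes for the c ring subunit, through which protons pass, differed by -0.06 (Atp5g1, SE 0.14), 0.02 (Atp5g2, SE 0.12) and 0.05 (Atp5g3, SE 0.12). They encode the same mature protein, and Atp5g1 was lowest in shPC25 replicate 2, at 13.66.

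The means over the members of a complex placed the tumors close together. Over all 84 members the mean was 12.10 ± 0.07 in shPC25, 12.10 ± 0.03 in shPC28 and 12.06 ± 0.05 in scram tumors. At the level of single tumors, shPC25 replicate 2 was the lowest of the 11 tumors for 26 members (31.0%, against 14.4% of all probe sets). These included Sdhd, Cox7a1 and Uqcrc2. That tumor was the highest for 12 members (14.3%, against 13.9%). Scram replicate 1 was the lowest for 13 members (15.5%, against 8.39%) and the highest for 0, against 6.68% of all probe sets; without it, the median member difference of both hairpin groups against scram was 0.01. Members above the scram mean numbered 56, 44 and 53 in the shPC25 tumors and 54, 48, 44 and 55 in the shPC28 tumors, against 21, 39, 45 and 57 in the scram tumors, so scram replicate 4 exceeded every hairpin tumor.

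**Figure D4:**
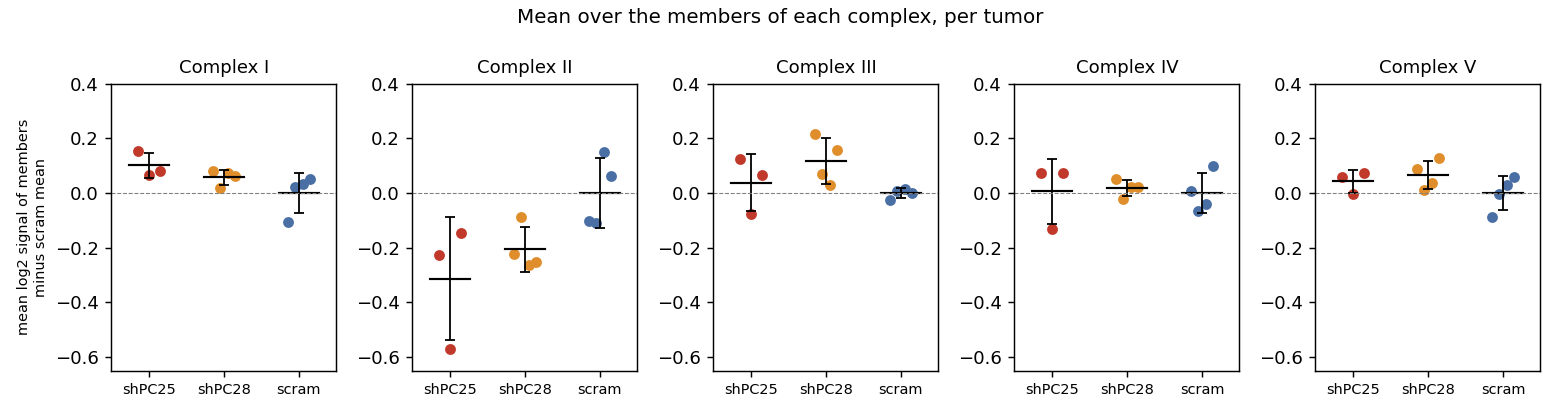
Mean log2 signal over the members of each complex in each tumor, minus the scram mean (vertical axis); points are tumors, lines group means and bars SD. Complex II shows the widest shift, with shPC25 replicate 2 lowest at 11.67 before the scram mean of 12.23 is taken off, and in no complex do all 7 hairpin tumors lie on one side of every scram tumor.

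The hairpins were also set against each other. Between shPC28 and shPC25, 0 members passed the threshold (0% of all probe sets) and 0 had an unadjusted p below 0.05, against 4.61% of all probe sets (2.14% higher and 2.46% lower). The median member difference was 0.00. The smallest p values among the lower ones were those of the complex I accessory genes Ndufb10, Ndufb4 and Ndufb4b, at -0.34 (95% interval -0.72 to 0.03), -0.28 (-0.60 to 0.03) and -0.25 (-0.53 to 0.04). Ndufb4b is a second mouse gene for the Ndufb4 subunit, and probes may not keep the transcripts of such a pair apart. Among the higher ones they were those of Cox6a2 at 0.55 (-0.08 to 1.19), the core subunit Ndufs7 at 0.35 (-0.05 to 0.76) and Atp5j2, subunit f of complex V, at 0.19 (-0.11 to 0.49), all with a limma adjusted p of 0.993. For Uqcr10 the difference between the hairpins was 0.02 (95% interval -0.28 to 0.33), and for Sdhd it was 0.19 (-0.39 to 0.77), an interval too wide to call the hairpins alike.

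Genes that build or feed the complexes were read from lists of 119 genes, of which 95 had a probe set. In both hairpin groups against scram, 63 were higher and 32 lower, 11 and 3 of them at an unadjusted p below 0.05 (11.6% and 3.16%, against 4.34% and 4.76% of all probe sets), and 0 passed limma's threshold. For shPC25 alone these counts were 6 and 3 (6.32% and 3.16%, against 4.29% and 4.16%), and for shPC28 alone 8 and 0 (8.42% and 0%, against 3.69% and 3.72%). Of 23 assembly factors of complex IV, 14 were higher and 9 lower. At an unadjusted p below 0.05, 5 were higher (21.7%, against 4.34% of all probe sets) and 0 lower. For shPC25 alone, 2 were higher at that level (8.70%, against 4.29%). For shPC28 alone, 3 were (13.0%, against 3.69%). Among the 5 were Cox18, which inserts subunit 2 into the membrane, at 0.53 (SE 0.15, limma adjusted p = 0.273) and Coa5 at 0.45 (SE 0.15, limma adjusted p = 0.369). Of 17 complex I assembly factors, 14 were higher and 3 lower, and Nubpl, which delivers iron-sulfur clusters, differed by 0.48 (SE 0.19, limma adjusted p = 0.461). Complex III assembly factors were higher in 6 of 6 with a median of 0.09 and none at an unadjusted p below 0.05, complex II factors in 2 of 4 and complex V factors in 3 of 5.

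Coenzyme Q carries electrons between the complexes, and 8 of 12 genes of its synthesis were higher. Coq2, which joins the ring to its tail, differed by 0.63 (SE 0.19, limma adjusted p = 0.308), and Coq8a by -0.65 (SE 0.27, limma adjusted p = 0.514). Among 15 regulators of mitochondrial biogenesis, 9 were higher and 6 lower. Polrmt, the RNA polymerase of mitochondria, averaged 8.70 in shPC25 and 8.62 in shPC28 tumors, against 7.71 in scram tumors, a log2 difference of 0.95 (SE 0.21, limma adjusted p = 0.188). Gabpb2, a subunit of the ETS factor GABP, differed by -0.29 (SE 0.13, limma adjusted p = 0.531). Of 13 subunits and carriers whose symbols fall outside the rule, 7 were higher and 6 lower: Dnajc30, an interactor of the ATP synthase, differed by 0.89 (SE 0.17, limma adjusted p = 0.115) and Etfa, which brings electrons from fatty acid oxidation, by -0.47 (SE 0.17, limma adjusted p = 0.427).

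Some members share an upstream region with a neighbour on the opposite strand, and 18 such pairs had starts within 1000 bases of each other. In 11 of the 18 the member and its neighbour differed in the same direction, and 0 neighbours passed the threshold. These pairs were looked at after the members' values were known. Zmat5, whose start lies 312 bases from that of Uqcr10, had log2 signals of 8.57, 8.48 and 7.88 in shPC25 tumors and 7.56, 7.86, 7.85 and 8.02 in shPC28 tumors, against 7.45, 7.40, 7.29 and 7.85 in scram tumors. It differed by 0.57 (SE 0.17, limma adjusted p = 0.319) and, unlike Uqcr10, overlapped between the groups through scram replicate 4. Timm8b, which starts 52 bases from Sdhd, differed by -0.36 (SE 0.17, limma adjusted p = 0.562), and like Sdhd it was highest in scram replicate 3, at 9.95, against 8.91 to 9.42 in the other 10 tumors.

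Other cells differed between these tumors as well. Macrophage markers were lower in 8 of 8, with a mean of 11.03 to 11.30 in shPC25, 11.60 to 11.93 in shPC28 and 12.01 to 12.44 in scram tumors, and neutrophil markers in 9 of 9, at 7.01 to 8.76, 7.43 to 8.21 and 8.33 to 10.75. B cell and lymph node markers, 4 of 7 of them not above the guide, reached a mean of 8.08 in 1 shPC28 tumor, against at most 4.13 in scram tumors. T cell markers were higher in 6 of 6 for shPC28 and lower in 4 of 6 for shPC25. Their mean was 6.30 to 7.34 in shPC25, 6.91 to 8.99 in shPC28 and 6.385 to 7.585 in scram tumors. Endothelial markers were higher in 6 of 7 for both hairpin groups. Proliferation markers had a median difference of 0.05. The part of these cells in the members' values was not tested.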

How the data were processed

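Total RNA of 11 excised E0771 tumors was prepared with the WT PLUS kit and hybridised to mouse Clariom S arrays. Quality control and differential expression used Transcriptome Analysis Console (the study's methods). The authors deposited log2 signals of 22206 probe sets, to 2 decimals and on one scale across arrays; for the summarization algorithm, background correction, filters and genome build, the sources used here name none. The deposited values were used without a filter or further scaling. Symbols came from GEO's platform annotation (19572 probe sets with 1 symbol, 2634 with none), and all 84 members agreed in symbol with RefSeq (GRCm38.p6); promoter sequences came from the same release. Probe set signals of genes with close copies or pseudogenes may be shared. Arrays give no depth, and the number of tumors limits the precision.

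limma 3.58.1 in R 4.3.3 fitted 1 mean per group to all 11 tumors (8 residual degrees of freedom) with lmFit and eBayes. It gave 4 comparisons: each hairpin group against scram, both hairpin groups weighted equally against scram, and shPC28 against shPC25. p-values were Benjamini-Hochberg adjusted over 22206 probe sets, with a threshold of 0.05. The comparisons with scram share the scram tumors. Data were simulated for both hairpin groups against scram (22206 probe sets, 200 changed), with normal noise independent between probe sets. The changes were the same in both hairpin groups. The fit recovered 65% of changes of 1 on the log2 scale and 92% of changes of 2, and 7.65% of its calls were false. No member differed by as much as 1, so recovery at the sizes seen for the members was not simulated.

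The members, the lists of related and marker genes and the background guide were chosen with earlier results of these data known. Named members were, per complex, the 2 of smallest p in each direction for both hairpin groups against scram, the 3 of smallest p in each direction in the other comparisons, members past the threshold, core catalytic subunits, and the isoform pairs; from the related lists, those of smallest p were named. Cox5a, Uqcrc2, Sdhc, the neighbouring genes and the marker genes were added after their values were seen. Replicate numbers did not pair the tumors: deviations of same-numbered tumors correlated between -0.18 and 0.14. Alternatives were quantile normalization, median centring, a filter on dim probe sets, a trended and robust prior and array weights. Others were fits restricted to the groups compared, a replicate block, a plain t-test of pooled variance and leaving out each tumor. For the arrays the study names Transcriptome Analysis Console rather than a t-test.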

Additional observations from a re-analysis of the deposited data

Results flagged for a closer look

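In 86 groups of 4 tumors (the shPC28 and the scram tumors, for the named members and Pcx), the gap of the farthest tumor to its nearest neighbour was set against the range of the group. About 1 in 20 groups is marked by chance with this rule, and 3 were marked here. Sdhd, the complex II anchor, was at 14.8 in scram replicate 3, while the other scram tumors lay between 13.98 and 14.10; without that tumor its log2 difference was -0.49. Ndufa4, of complex IV, was at 14.02 in the same tumor, scram replicate 3, against 14.70 to 14.75 in the other scram tumors, and without it the log2 difference of both hairpin groups against scram was -0.19. Ndufs4, an accessory subunit of complex I, was at 11.33 in scram replicate 4, against 11.14 to 11.16 in the rest of the group.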

How the results depend on the processing

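Some alternatives could not change a direction. The trended and robust prior, the dim filter and the fits restricted to the groups compared left each log2 difference as it was. So did leaving out a tumor of a group outside the comparison. The count of kept directions is therefore partly fixed in advance. Of 1040 values of 55 named differences under all alternatives, 1004 kept their direction and their side of the threshold, 34 changed sign and 2 newly passed the threshold. The 2 were both Uqcr10 with a trended and robust prior, which gave 1 member past the threshold for shPC28 and 1 for both hairpin groups. Of all 22206 probe sets, that prior passed 9 for shPC28 (0 in the main fit) and 22 for both hairpin groups (3 in the main fit). Median centring moved the median of all probe sets from 0.02 to 0.11 for both hairpin groups (0.14 for shPC25, 0.08 for shPC28, -0.06 for shPC28 against shPC25), and the median of the members to 0.126, 0.165, 0.106 and -0.053; relative to all probe sets the members' median stayed at 0.01 for both hairpin groups. The members at an unadjusted p below 0.05 then numbered 16 for shPC25 (14 higher, 2 lower; 19.0% against 11.5% of all probe sets), 15 for both hairpin groups (13 higher, 2 lower, against 5 and 3 as deposited; 17.9% against 11.4%) and 3 for shPC28 against shPC25 (3.57% against 4.9%), and 0 passed the threshold. The plain t-test gave 9 for shPC25 (10.7% against 6.71%) and 10 for shPC28 (11.9% against 7.36%). It gave 14 for both, with the hairpin tumors pooled rather than the groups weighted equally (16.7% against 8.82%), and 3 between the hairpins (3.57% against 4.18%). The trended and robust prior gave 2 between the hairpins (2.38% against 4.27%). With the replicate block the count at an unadjusted p below 0.05 was 8 for shPC25 (9.52% against 7.79%), 8 for shPC28 (9.52% against 7.24%; 4 higher, 4 lower), 9 for both (10.7% against 8.7%) and 1 between the hairpins (1.19% against 4.28%), and 0 members passed the threshold in each comparison. Without 1 tumor the counts for shPC25 ranged from 4 (without scram replicate 1, 4.76% against 7.63%) to 9 (without scram replicate 4, 10.7% against 9.11%). For shPC28 they ranged from 3 to 6 (without scram replicate 4, 7.14% against 8.17%). The 3 came without scram replicate 3 (3.57% against 6.6%), shPC28 replicate 3 (against 6.43%) or shPC28 replicate 4 (against 7.16%). For both hairpin groups they ranged from 6 (without scram replicate 1, 7.14% against 7.79%) to 9 (without scram replicate 4, 10.7% against 9.84%). Between the hairpins they ranged from 0 to 3 (without shPC25 replicate 3, 3.57% against 4.66%). Signs turned only for differences near 0: with median centring Ndufs8 was 0.0031, Atp5pb 0.041, Atp5g1 0.031, Ndufa4 0.081, Ndufv1 0.090 and Atp5a1 0.089; with array weights Atp5g1 was 0.011 and Atp5a1 0.027; with the replicate block Ndufv1 was 0.0067 and Atp5a1 0.016. Without 1 tumor Atp5g1 ranged from -0.17 to 0.025, Cox6a1 from -0.0075 to 0.13, Cox8a from -0.013 to 0.087, Ndufa4 from -0.19 to 0.052, Atp5g2 from -0.034 to 0.084, Ndufv1 from -0.10 to 0.085, Uqcrfs1 from -0.011 to 0.11 and Atp5a1 from -0.067 to 0.083. The cause of these changes was not tested, except that centring shifts all differences by construction. A mean over probe sets of a gene gave no other value, since each member had 1 probe set. Members not above the background guide (4 of 84) were near background, and small differences of the rest were not detectable with 3 or 4 tumors a group.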
